A study of Mus musculus with 335 samples.

Results

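The proliferin genes are described here across mouse mammary tumours, their metastases and the cultured lines that gave rise to some of them. The genes sought were Prl2c2, Prl2c3 and Prl2c4, by symbol, in a deposited expression table of 20188 genes. Of these 3 symbols, 2 had a row, Prl2c2 and Prl2c3. Prl2c4 had none under that symbol, and the RefSeq gene list gives it as an older name of Prl2c3. The genes were singled out because Prl2c3 had stood out in earlier work on the 6DT1 metastases of these same data, so values of 6DT1 metastases against 6DT1 tumours are given below as a description without a test.

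Proliferins are secreted glycoproteins of the prolactin and growth hormone family. In the mouse they are made mainly by trophoblast giant cells of the placenta, and they act on endothelial cells as angiogenic factors through the mannose 6-phosphate receptor, which is encoded by Igf2r. They were first known as transcripts of cultured fibroblasts that serum and phorbol esters induce, and a proliferin promoter is a textbook case of a regulatory element bound by the transcription factor AP-1 and the glucocorticoid receptor together.

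RNA-seq libraries fell into 61 groups and gave 281 profiles, since nodules or pieces of 1 tissue from 1 animal were averaged. All samples were untreated, per the labels. Allograft hosts received a tumour line in the mammary gland (orthotopic), by the tail vein or by the heart (intracardiac). The lines used here most were 6DT1 (FVB mice, driver labelled cMyc), Mvt1 (FVB, cMYC and VEGF), and the sister lines 4T1, 4T07 and 67NR (BALB mice, driver labelled unknown), each also as cultured cells. TSAE1, F311, EMT6 and D2A1 (BALB, unknown), HRM1 (FVB, Pik3ca), R3T (129S1J, unknown) and E0771 (BL6, unknown) gave orthotopic tumours. Met1 (FVB, PyMT, the polyoma middle T antigen) and M6 (SV40T, the SV40 T antigen, in mice labelled REAR when orthotopic and FVB when intracardiac) gave tumours, metastases and cultures. Transgenic animals carried PyMT in FVB, BL6, BL10, CAST or MOLF mice, cMYC or Neu in FVB mice, or C3Tag, whose strain is labelled differently in each of 3 tumours (FVB, FVG and C3Tag). Healthy lung and liver came from FVB mice labelled wild type. Strains are those of the strain label, where titles or column names read FVBN for HRM1, BL6N for E0771 and some BL6 PyMT animals, and BL10J for most BL10 ones. The M6 cultures and 1 of 3 6DT1 cultures carry the strain label BALB, which differs from that of the animals with the same line. Each allograft model is a single line, so its animals repeat the host and not the tumour of origin.

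Levels are RPKM as deposited, a unit that divides the reads of a gene by its transcript length and the size of the library. Libraries held 8106344 to 54906212 counted reads (median 27175852), read from the steps between low values, and at the median depth 1 read amounts to 0.0247 RPKM of Prl2c2 and 0.0240 RPKM of Prl2c3. Fitted differences are on the log2(RPKM + 1) scale, which understates the change of low genes, and come from limma with Benjamini-Hochberg adjusted p-values over all genes fitted and a threshold of 0.05. Nothing in the labels says whether cultures of a line were grown separately, so their p-values measure the spread between these samples. In bulk tissue, fewer cells of a type and less RNA per cell cannot be told apart.

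The 2 genes are near copies, and the letters below show how little separates them. Both lie on the minus strand of chromosome 13 in GRCm38, Prl2c3 at chr13:12790816-12800079 and Prl2c2 at chr13:12996125-13005383, each with 5 coding exons and 672 coding bases (GENCODE vM21). The coding sequences differed at 3 of 672 bases, which is 99.6% identity. The first difference, C14T, is in capitals in the first 40 coding bases, counted from 1 at the A of the start codon, with the base of Prl2c3 before the position and that of Prl2c2 after it.
Prl2c3: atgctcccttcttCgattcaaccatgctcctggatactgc
Prl2c2: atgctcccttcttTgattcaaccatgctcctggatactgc
The others, A200C and G319T, are in capitals in coding bases 181 to 340, which are identical elsewhere.
Prl2c3: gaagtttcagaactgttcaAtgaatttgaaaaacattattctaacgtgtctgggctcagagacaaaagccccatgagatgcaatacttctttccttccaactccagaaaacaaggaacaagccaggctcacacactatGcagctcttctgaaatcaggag
Prl2c2: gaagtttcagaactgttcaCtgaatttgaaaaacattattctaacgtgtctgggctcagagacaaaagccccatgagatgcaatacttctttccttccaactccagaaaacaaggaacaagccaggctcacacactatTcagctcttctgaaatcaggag
Of 743 windows of 100 bases along the Prl2c2 transcript, 472 (63.5%) were found unchanged in Prl2c3, and of 793 windows of 50 bases, 635 (80.1%) were. The exon lengths behind the deposited RPKM, read from the steps between values, were 1488 bases for Prl2c2 and 1535 for Prl2c3. These are longer than the transcripts compared, so part of the counted sequence is not covered by these shares. A read from such a stretch does not tell the genes apart, and how the authors' counting treated it is not given in the sources used here. Levels of each gene are therefore uncertain, and the sum of both is given beside them.

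A pair of related genes on the same chromosome had rows of their own. Prl2c5 (chr13:13182715-13191923, plus strand) was 96.0% identical to Prl2c3 over the coding sequence, and Prl2c1 (chr13:27849342-27857788, plus strand) was 92.3% identical. Of 745 windows of 100 bases of Prl2c5, 21 (2.82%) occurred in Prl2c2 and 0 in Prl2c3. Of 795 windows of 50 bases, 147 (18.5%) occurred in Prl2c2 and 93 (11.7%) in Prl2c3. In the 52 profiles whose summed Prl2c2 and Prl2c3 reached 10 RPKM, Prl2c5 stood at a median of 1.17% of that sum and Prl2c1 at 0.104%.

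The upstream sequence is shown because the proliferin promoter is the known AP-1 target. The window covers 250 to 151 bases before the gene start (RefSeq, GRCm38.p6), at chr13:12800230-12800329 on the minus strand for Prl2c3 and chr13:13182466-13182565 on the plus strand for Prl2c5, with the letters TGANTCA, the AP-1 motif, in capitals.
Prl2c3: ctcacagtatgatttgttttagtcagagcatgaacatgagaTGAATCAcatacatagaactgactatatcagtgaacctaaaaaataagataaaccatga
Prl2c5: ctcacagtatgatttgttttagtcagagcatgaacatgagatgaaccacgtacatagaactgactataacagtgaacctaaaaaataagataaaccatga
The motif, which reads the same on both strands, occurred once in the 250 bases before Prl2c3, starting 209 bases before the gene start. It did not occur in the same window of Prl2c5, where the stretch differs by T5C, counted within the 7 letters of the motif with the base of Prl2c3 first. The windows were 96.0% identical, and 2217 of 32851 promoters (6.75%) hold the motif in 250 bases. Such a match is a description of letters and not of binding.

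Across the 61 groups, proliferin RNA was abundant in a minority of models and at or near 0 in the others. The mean of the summed level was at least 100 RPKM in 4 groups, at least 10 RPKM in 14, at least 1 RPKM in 26 and at least 0.1 RPKM in 40. In all, 112 libraries reached a summed 1 RPKM. TSAE1 tumours led the order at 310.7 ± 133.6 RPKM (SD, n = 4 tumours), followed by 6DT1 orthotopic lung metastases at 298 ± 150 RPKM (n = 6 animals). Next came the 6DT1 tail vein metastases at 132 RPKM (n = 2 animals, at 231 and 32.6) and F311 tumours at 132 ± 92.3 RPKM (n = 4). EMT6 tumours stood at 90.0 ± 73.3 RPKM (n = 4), the 6DT1 liver metastasis of 1 animal at 62.8 RPKM, cultured 4T07 cells at 48.5 ± 13.8 RPKM (n = 4), Mvt1 orthotopic lung metastases at 46.5 ± 45.2 RPKM (n = 6) and HRM1 tumours at 40.6 ± 23.7 RPKM (n = 4). Every neighbouring pair among the 26 groups at 1 RPKM or more overlapped in range, so no step of the order exceeded the spread between animals.

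In TSAE1 tumours the 4 values of Prl2c3 were 136, 256, 97.7 and 226 RPKM, and those of Prl2c2 were 97.3, 203, 70.3 and 156 RPKM. F311 tumours had 55.1, 76.7, 23.6 and 160 RPKM of Prl2c3 and 38.6, 55.1, 18.8 and 98.7 RPKM of Prl2c2. All 4 tumours of each line held both genes well above 10 RPKM, and tumours of 1 line differed several-fold from each other. HRM1 tumours had 12.3, 36.7, 24.9 and 10.6 RPKM of Prl2c3 and 11.8, 32.9, 25.2 and 8.06 RPKM of Prl2c2. R3T, D2A1, C3Tag and E0771 tumours had summed means of 9.19, 3.38, 1.62 and 1.49 RPKM, with R3T tumours spread between 0.707 and 24.0 RPKM. BALB lines with a driver labelled unknown were found both at the top of the order (TSAE1) and near 0 (67NR).

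At the other end, 35 groups had a summed mean under 1 RPKM, and the highest profile among them reached 1.98 RPKM. They included the tumours and metastases of Met1 and M6, of Neu, and of PyMT in FVB, BL6, BL10 and CAST. Tumours of Myc animals had Prl2c3 at 0.101 RPKM in the lowest, 4.51 at the median and 31.0 in the highest of 6 tumours. PyMT tumours in MOLF mice were at 0 to 0.444 RPKM in 6 of 8 animals and reached summed levels of 13.2 RPKM in animal 10047 and 6.81 RPKM in 1 other. Healthy lung held 0.0842 to 0.191 RPKM of both genes together (3 to 8 reads in each of 4 libraries), and healthy liver held 0 reads in 4 of 4 libraries.

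**Figure D1:**
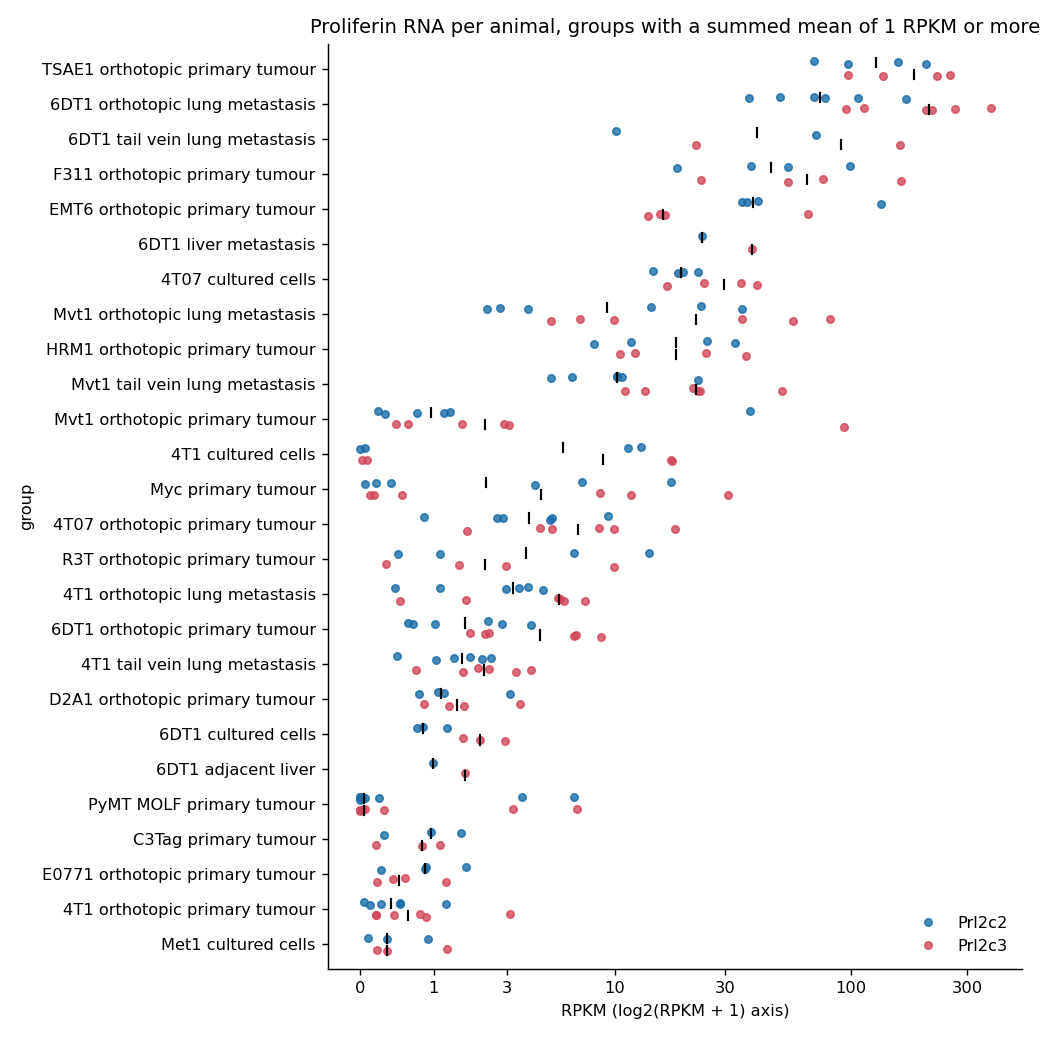
RPKM of Prl2c2 and Prl2c3 (log axis), drawn separately, in the 26 groups with a summed mean of at least 1 RPKM, ordered by that mean. Each point is an animal, tumour or culture, and black marks are medians. TSAE1 tumours and 6DT1 orthotopic lung metastases lie at the top, with summed means, not drawn, of 310.7 and 298 RPKM. Ranges of the summed level overlap between neighbouring groups.

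The balance between the genes was not the same in every line. Over 101 profiles with a summed level of at least 1 RPKM, Prl2c3 was the higher gene in 87, and the ratio of Prl2c3 to Prl2c2 had a median of 1.66 and a range of 0.385 to 3.48. It was 2.22 to 2.90 in 6DT1 orthotopic metastases and 2.16 to 3.48 in 6DT1 tumours, and 2.19 to 2.55 in Mvt1 orthotopic metastases and 2.27 to 2.46 in the 4 Mvt1 tumours over 1 RPKM. Both are FVB lines, and the ranges of their metastases and tumours overlapped. The Mvt1 tail vein metastases, whose titles name Met1 while their cell line label is Mvt1, had ratios of 2.14 to 2.26 and summed levels of 16.1 to 74.8 RPKM, where 0.0384 RPKM of Prl2c3 was the highest in a Met1 tumour. The 6DT1 liver metastasis and the adjacent liver, each from the same animal, stood apart from the other 6DT1 profiles at 1.63 and 1.71. The metastasis profile is the mean of 2 nodules and rests mostly on the first. That nodule had 71.6 RPKM of Prl2c3 and 45.0 RPKM of Prl2c2. The other had 6.12 and 2.77 RPKM, a balance nearer that of the other 6DT1 profiles. TSAE1 and F311 tumours stood lower, at 1.26 to 1.45 and 1.26 to 1.62, and HRM1 tumours at 0.988 to 1.31.

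EMT6 tumours turned the balance round. Prl2c2 was 37.1, 41.2, 133 and 35.4 RPKM, against 16.6, 15.9, 66.7 and 14.0 RPKM of Prl2c3, so Prl2c2 was the higher gene in 4 of 4 tumours, at ratios of 0.385 to 0.501. The 3 E0771 tumours over 1 RPKM (0.433 to 0.730) and the 2 C3Tag tumours over it (0.712 to 0.844) were also below 1. Since the genes share most of their sequence, the ratio depends on reads that cover the few differing bases and the transcript ends, and strain differences in those bases were not tested. Over 54 groups of tumours, metastases and cultures, the group means of the genes, on the log2(RPKM + 1) scale, correlated at r = 0.984, a description across groups that share the read ambiguity.

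**Figure D2:**
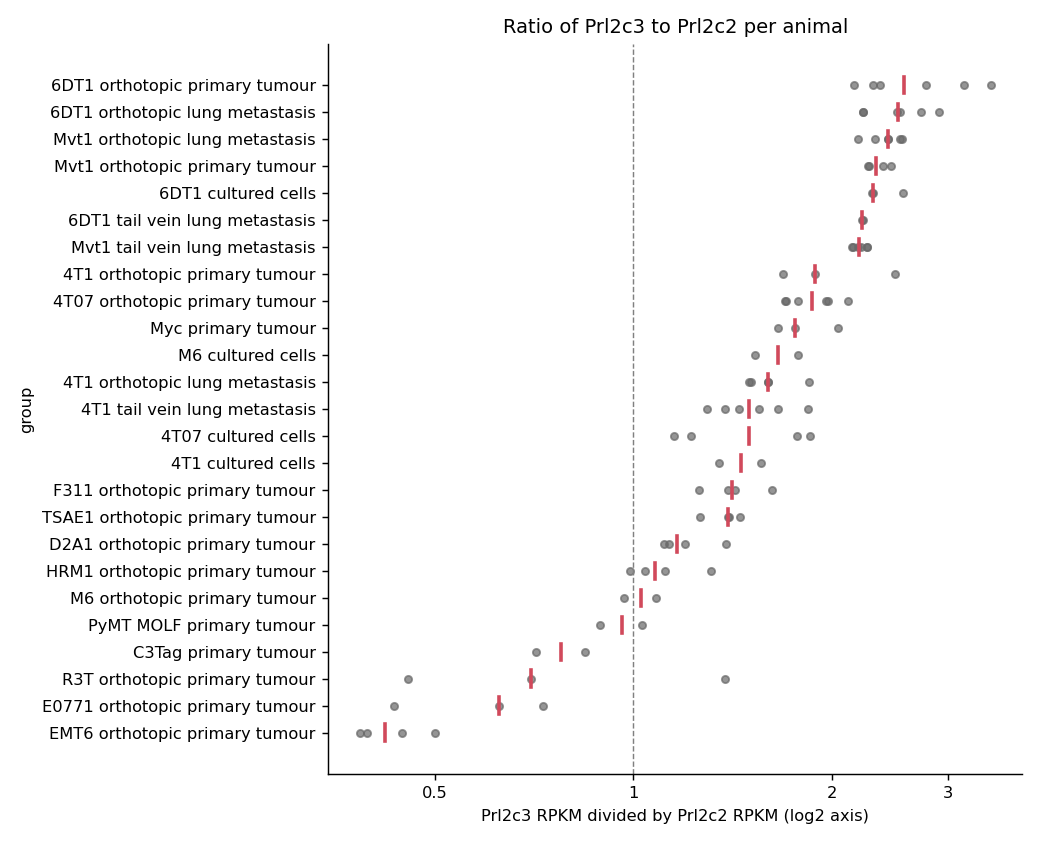
Ratio of Prl2c3 to Prl2c2 RPKM (log axis) for animals whose summed level was at least 1 RPKM, in groups with at least 2 such animals. EMT6 tumours lie lowest at 0.385 to 0.501, and 6DT1 and Mvt1 groups lie highest, all above 2.

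In 6DT1 the separation between metastasis and tumour was wide, and it is the one that drew attention to the genes. Prl2c3 was 95.7 RPKM in the lowest, 209 at the median and 376 in the highest of 6 lung metastasis profiles, against 1.80, 4.44 and 8.62 RPKM in the primary tumours of the same animals. Prl2c2 was 37.8, 74.4 and 169 RPKM in the metastases, against 0.569, 1.69 and 3.99 RPKM in the tumours. The groups did not overlap for either gene, and the metastasis was higher in 6 of 6 animals. Here and below, overlap was not counted over all genes, so how common its absence is among them is not known. The proliferin reads in a library numbered 2785 to 32861 in the metastases and 94 to 363 in the tumours. The fitted difference was 5.24 ± 0.32 for Prl2c3 and 4.87 ± 0.30 for Prl2c2 (SE). Of 11121 genes fitted in that comparison, 34.4% were called, 19.4% as higher and 15.0% as lower, and nothing is read from this for the members.

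Genes around proliferin in 6DT1 were described from lists of its known regulators and companions. Higher and lower stand for genes called in the fit over all genes. They are a description, since the lists were chosen with earlier results of these data known. Of 8 genes for AP-1 subunits and the glucocorticoid receptor, 5 were higher in the metastases and 0 lower, with a median difference of 0.39 beside 0.0032 over all genes. The higher genes included Jun (24.4 RPKM in metastases against 13.1 RPKM in tumours) and Fosl1 (26.0 RPKM in metastases against 14.8 RPKM in tumours). Of 10 genes that phorbol esters or serum induce, 6 were higher and 2 lower. Timp1, an inhibitor of metalloproteinases, was at 180 RPKM in metastases against 75.2 RPKM in tumours, while Mmp13, a collagenase, was at 5.45 RPKM in metastases against 46.7 RPKM in tumours. Of 12 listed trophoblast genes, 2 entered the fit and 1 was higher, Gata2, at 13.7 RPKM in metastases against 8.74 RPKM in tumours. Gata2 had its highest group mean in healthy lung, at 30.4 RPKM, and lung RNA was present in these metastases, a part that was not tested. Igf2r, the receptor gene, did not pass the threshold, at 22.6 RPKM in metastases against 23.3 RPKM in tumours.

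Lung RNA was present in the 6DT1 metastases. All 6 lung epithelial markers were higher, with a summed level of 2478 to 6418 RPKM in metastases against 0.720 to 1.15 RPKM in tumours, and neutrophil markers were higher in 3 of 3 (122 to 478 RPKM in metastases against 7.65 to 131 RPKM in tumours). Endothelial markers were higher in 3 of 3 fitted (26.5 to 112 RPKM in metastases against 10.1 to 29.7 RPKM in tumours), and fibroblast markers lower in 3 of 6 (44.5 to 235 RPKM in metastases against 104 to 661 RPKM in tumours). The part of these cells was not tested. Healthy lung, at 52518 to 87992 RPKM of the same lung markers, held at most 0.191 RPKM of proliferin RNA. The 6DT1 liver metastasis, with lung markers at 1.00 RPKM, held proliferin RNA too, as given below.

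Nodules of the same 6DT1 animal differed from each other. In mouse 1 the nodules had 164 and 588 RPKM of Prl2c3, a ratio of 3.59, and in mouse 4 they had 144 and 47.8 RPKM, a ratio of 3.00. In mice 2, 3 and 5 the ratios between nodules were 2.82, 1.51 and 1.23. The lowest nodule, at 47.8 RPKM, still lay above the highest tumour, at 8.62 RPKM. The 6DT1 liver metastases came from 1 animal, whose labels disagree on the injection route, and its 2 nodules had 71.6 and 6.12 RPKM of Prl2c3, against 1.68 RPKM in the adjacent liver of that animal.

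Metastases seeded through the tail vein also held the RNA, with the 2 animals far apart. Nodules of animal 9540 had 177, 148 and 153 RPKM of Prl2c3, and those of animal 9543 had 19.1, 41.8 and 6.59 RPKM. In Prl2c3 the 3 nodules of animal 9543 all fell below every orthotopic nodule, and those of animal 9540 fell within the orthotopic range of 47.8 to 588 RPKM. In Prl2c2 the highest nodule of animal 9543, at 17.5 RPKM, lay above the lowest orthotopic nodule, at 16.7 RPKM. Over animals, the tail vein group differed from the orthotopic group by -1.64 ± 0.68 for Prl2c3 and -1.44 ± 0.68 for Prl2c2. The difference in Prl2c3 was -3.03 with animal 9543 alone in the tail vein group and -0.26 with animal 9540 alone, so it rests on 1 animal. It is given without a test, since its orthotopic metastases are those of the comparison that drew attention to the genes.

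**Figure D3:**
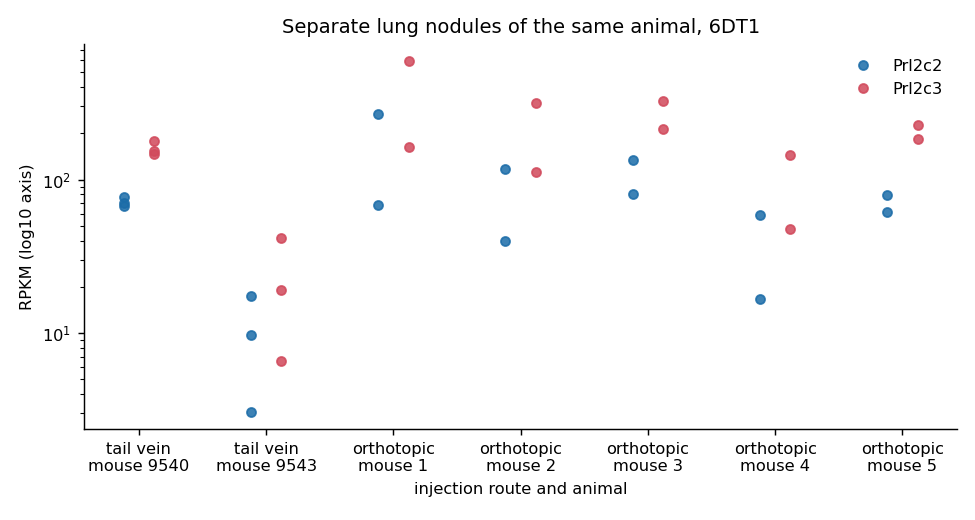
RPKM of Prl2c2 and Prl2c3 (log axis) in single 6DT1 lung nodules, grouped by animal, tail vein animals left of orthotopic ones. Orthotopic mouse 0, with 1 library, is not drawn. In Prl2c3, nodules of tail vein animal 9543 lie at 6.59 to 41.8 RPKM, below the orthotopic nodules at 47.8 to 588 RPKM.

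In 4T1 both genes were higher in lung metastases than in the primary tumours of the same animals, at a far lower level than in 6DT1. Prl2c3 was 0.463 RPKM in the lowest, 5.50 at the median and 7.32 in the highest of 6 metastases, against 0.161, 0.570 and 3.09 RPKM in 6 tumours. Prl2c2 was 0.387, 3.21 and 4.58 RPKM in the metastases, against 0.0420, 0.336 and 1.24 RPKM in the tumours. The metastasis was higher in 6 of 6 animals for each gene, and the ranges of the groups overlapped. The difference was 1.43 ± 0.27 for Prl2c3 (adjusted p = 0.0172) and 1.29 ± 0.21 for Prl2c2 (adjusted p = 0.0103), in a comparison that called 12.1% of genes and 7.36% as higher. The lowest metastasis, from mouse 9, stood over a tumour at 0.161 RPKM of Prl2c3, and the highest tumour, from mouse 11, was paired with a metastasis at 5.80 RPKM. Both genes passed the filter on low values through 5 metastases and the tumour of mouse 11, and without that mouse neither could be fitted. With no filter the adjusted p was 0.0345 for Prl2c3 and 0.0264 for Prl2c2.

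Of the AP-1 and glucocorticoid receptor genes, 0 of 8 passed in 4T1, where 7.36% of all genes fitted were called higher and 4.75% lower. In that limma fit, 3 of the 8 had an unadjusted p under 0.05. Of the 10 phorbol and serum response genes, 3 were lower and 0 higher: the metalloproteinase genes Mmp10 (2.62 RPKM in metastases against 18.5 RPKM in tumours, adjusted p = 0.0106) and Mmp13 (9.27 RPKM in metastases against 54.5 RPKM in tumours, adjusted p = 0.0251), and the prostaglandin synthase gene Ptgs2 (13.4 RPKM in metastases against 28.6 RPKM in tumours, adjusted p = 0.0197). All 6 lung epithelial markers were higher, at 522.4 to 12508 RPKM in metastases against 0.749 to 3.27 RPKM in tumours, and fibroblast markers were lower in 3 of 6 (90.0 to 259 RPKM in metastases against 233 to 847 RPKM in tumours). The part of these cells in the proliferin difference was not tested, and healthy lung held at most 0.135 RPKM of Prl2c3.

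In Mvt1 the metastases were higher in 5 of 6 animals, and the call turned on the remaining one. Prl2c3 was 5.04 RPKM in the lowest, 22.6 at the median and 82.0 in the highest of 6 metastases, against 0.407, 2.25 and 93.6 RPKM in 6 tumours. The tumour at 93.6 RPKM came from mouse 2, whose metastasis had 9.89 RPKM, while the other 5 tumours lay between 0.407 and 3.05 RPKM, below every metastasis. Prl2c2 was 2.30, 9.18 and 35.3 RPKM in metastases, against 0.184, 0.959 and 38.1 RPKM in tumours. The difference was 2.23 ± 1.08 for Prl2c3 (adjusted p = 0.156) and 1.78 ± 0.95 for Prl2c2 (adjusted p = 0.194), where 29.0% of genes were called. Of the 8 AP-1 and glucocorticoid receptor genes, 0 were higher and 3 lower. Over all genes fitted, 11.2% were called higher and 17.8% lower. Without mouse 2 the difference was 3.30 ± 0.74 for Prl2c3 (adjusted p = 0.0254) and 2.73 ± 0.64 for Prl2c2 (adjusted p = 0.0286).

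The tumour of mouse 2 was high in Serpinb2 too, the gene of plasminogen activator inhibitor type 2, at 80.6 RPKM against 0.696 to 10.7 RPKM in the other tumours, and listed the lung surfactant gene Sftpc at 0. The tumour of mouse 5 stood apart in another way, with Myc at 35.7 RPKM where the others had 354 to 412 RPKM, and Epcam, an epithelial surface gene, at 67.3 RPKM where the others had 0.376 to 1.70 RPKM. Its proliferin level was low, at 0.573 RPKM of Prl2c3. Without mouse 5 the differences were 1.63 ± 1.21 for Prl2c3 and 1.27 ± 1.08 for Prl2c2 (adjusted p = 0.326 and 0.388). Lung epithelial markers were higher in 6 of 6 in these metastases and fibroblast markers lower in 5 of 6 (39.3 to 135 RPKM in metastases against 135 to 484 RPKM in tumours), and their part was not tested.

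**Figure D4:**
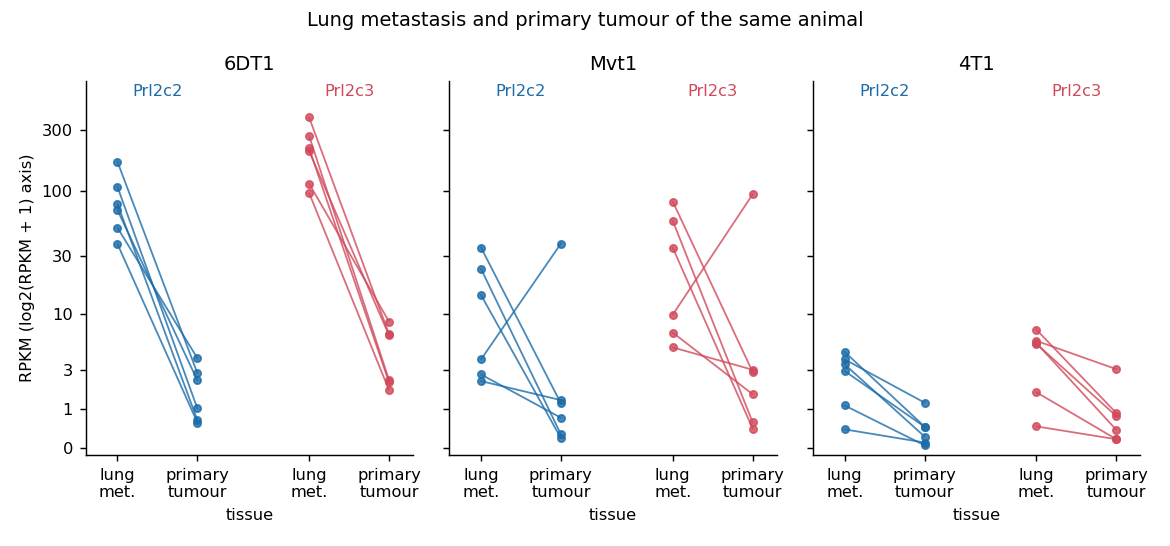
RPKM of Prl2c3 and Prl2c2 (log axis) in lung metastases (left) and primary tumours (right) of the same animals in 6DT1, Mvt1 and 4T1, with lines joining tissues of 1 animal. Lines slope down to the tumour in every animal but Mvt1 mouse 2, whose tumour had 93.6 RPKM of Prl2c3.

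The injection route made no detected difference in the other lines. In 4T1, Prl2c3 was 0.691 RPKM in the lowest, 2.20 at the median and 3.98 in the highest of 6 tail vein metastases, against 0.463, 5.50 and 7.32 RPKM in orthotopic ones, with overlapping ranges. The difference was -0.54 ± 0.41 for Prl2c3 (adjusted p = 0.436) and -0.45 ± 0.34 for Prl2c2 (adjusted p = 0.428), where 5.75% of genes were called. In Mvt1, Prl2c3 was 11.1, 22.5 and 51.8 RPKM in 6 tail vein metastases, against 5.04, 22.6 and 82.0 RPKM in orthotopic ones. The difference was 0.08 ± 0.65 for Prl2c3 (adjusted p = 0.963) and 0.15 ± 0.60 for Prl2c2 (adjusted p = 0.924), where 4.25% were called. In these metastases the lung markers summed to 334 to 1440 RPKM by tail vein against 522.4 to 12508 RPKM orthotopically in 4T1, and to 940.0 to 5697 RPKM by tail vein against 816 to 10624 RPKM orthotopically in Mvt1.

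In 7 further models with paired tissues, neither gene reached the level that entered the fit. The Neu model, with 2 animals, was not fitted, and had at most 0.0281 RPKM of Prl2c3 in metastases, against 0 in both tumours. Met1 metastases had at most 0.114 RPKM of Prl2c3, against at most 0.0384 RPKM in Met1 tumours. M6 metastases had at most 0.137 RPKM, against at most 0.763 RPKM in M6 tumours. PyMT metastases in FVB mice had at most 0.578 RPKM, against at most 0.304 RPKM in the tumours of the same animals, and those in MOLF mice at most 0.995 RPKM, against 6.70 RPKM in the tumour of animal 10047. Whether these low values differ was not tested.

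Cultured lines and the tumours they formed were set side by side next. In 4T07, Prl2c3 was 1.73 RPKM in the lowest, 6.78 at the median and 18.4 in the highest of 6 tumours, against 24.4, 17.0, 35.0 and 40.9 RPKM in 4 cultures, with overlap between the highest tumour and the lowest culture. For Prl2c2 the tumours had 0.819, 3.92 and 9.32 RPKM, against 19.9, 14.7, 18.9 and 23.1 RPKM in the cultures, without overlap. Tumours were lower, by a difference of -1.94 ± 0.48 for Prl2c3 (adjusted p = 0.00901) and -2.12 ± 0.40 for Prl2c2 (adjusted p = 0.00186), in a comparison that called 37.5% of genes and 18.8% as lower. Against the 2 cultures whose titles carry AS, the difference in Prl2c3 was -1.51 ± 0.63 (adjusted p = 0.0582).

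Of the regulators, Fosl1, an AP-1 subunit, was also lower in 4T07 tumours (49.9 RPKM in tumours against 100 RPKM in cultures, adjusted p = 0.00165), and Jund, another, was higher (52.6 RPKM in tumours against 17.5 RPKM in cultures, adjusted p = 0.000253). In all, 2 of the 8 AP-1 and glucocorticoid receptor genes were higher and 1 lower. Of the 10 phorbol and serum response genes 1 was higher and 3 lower. The shares over all genes fitted were 18.7% higher and 18.8% lower. Igf2r was lower (20.8 RPKM in tumours against 38.5 RPKM in cultures, adjusted p = 0.00115). Epithelial markers were lower in 1 of 4 fitted (189 to 318 RPKM in tumours against 250 to 1156 RPKM in cultures). Fibroblast markers were higher in 6 of 6 (170 to 723 RPKM in tumours against 0.831 to 1.72 RPKM in cultures) and neutrophil markers in 3 of 3 (167 to 1000.4 RPKM in tumours against 2.83 to 9.31 RPKM in cultures), and their part in the lower proliferin level was not tested.

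Mvt1 went the other way on values. Its 6 tumours had 0.407 RPKM of Prl2c3 in the lowest, 2.25 at the median and 93.6 in the highest, all above its 3 cultures at 0.166, 0.104 and 0.0231 RPKM. The difference of tumours over cultures was 2.05 ± 1.15 for Prl2c3 (adjusted p = 0.198) and 1.45 ± 0.98 for Prl2c2 (adjusted p = 0.281), where 34.1% of genes were called. Both genes passed the filter on low values through the tumours alone. Over the alternative limma fits, which include one with no filter, neither gene passed the threshold. Single cultures were left out in some of these fits but no tumour was, so all held the tumour at 93.6 RPKM. The adjusted p was 0.0554 to 0.349 for Prl2c3 and 0.0771 to 0.428 for Prl2c2. In 6DT1, tumours had 1.80, 4.44 and 8.62 RPKM of Prl2c3, against 2.93, 2.08 and 1.63 RPKM in 3 cultures, with overlap. That difference was 0.68 ± 0.41 for Prl2c3 and 0.46 ± 0.37 for Prl2c2, given without a test since the tumours are shared with the comparison that drew attention to the genes.

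In 67NR, Met1 and M6 neither gene entered the fit. Prl2c3 was 0.0220 to 0.114 RPKM in 67NR tumours against 0.0216 to 0.259 RPKM in cultures, 0 to 0.0384 RPKM in Met1 tumours against 0.177 to 1.28 RPKM in Met1 cultures, and 0 to 0.763 RPKM in M6 tumours against 0.111 to 0.744 RPKM in M6 cultures.

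The 4T1 tumours, at 0.161 to 3.09 RPKM of Prl2c3, lay between cultures that fell into the pairs their titles name. The cultures labelled AS had 17.5 and 17.8 RPKM of Prl2c3 and 13.0 and 11.4 RPKM of Prl2c2. Those labelled isolation had 0.0669 and 0.0226 RPKM of Prl2c3, and 0.0460 RPKM and 0 of Prl2c2. The isolation cultures also stood apart in Myc, at 293 and 230 RPKM, where the AS cultures had 52.8 and 47.7 RPKM and 4T1 tumours 32.1 to 50.1 RPKM. In Fosl1 they had 177 and 113 RPKM, where each AS culture had 18.5 RPKM. What the labels AS and isolation stand for is not given in the sources used here, so 4T1 results that use these cultures are given for each label.

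**Figure D5:**
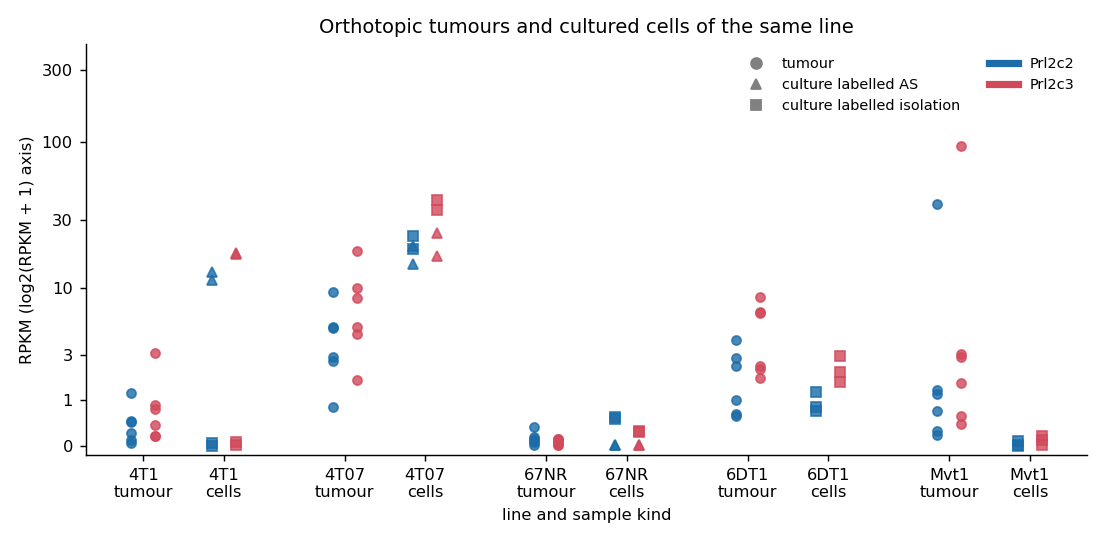
RPKM of Prl2c3 and Prl2c2 (log axis) in primary tumours (left) and cultures (right) of 4T1, 4T07, 67NR, 6DT1 and Mvt1. The 4T1 cultures split by title label, with 17.5 and 17.8 RPKM of Prl2c3 in those labelled AS and under 0.1 RPKM in those labelled isolation.

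The sister lines 4T07 and 67NR, derived from the same tumour, differed in culture and in the animal. In culture Prl2c3 was 24.4, 17.0, 35.0 and 40.9 RPKM in 4T07, against 0.0216, 0.0231, 0.259 and 0.247 RPKM in 67NR. For Prl2c2 the values were 19.9, 14.7, 18.9 and 23.1 RPKM in 4T07, against 0.0223, 0.0238, 0.564 and 0.510 RPKM in 67NR. The groups did not overlap for either gene, and both passed the filter on low values through the 4T07 cultures alone, so a difference was built into that entry. In 67NR the higher pair was the cultures labelled isolation. The difference was 4.67 ± 0.27 for Prl2c3 and 3.99 ± 0.22 for Prl2c2. In the limma fit with no filter on low values, which does not select on level, the adjusted p was 2.78e-05 for Prl2c3 and 1.82e-05 for Prl2c2. With the filter, 25.3% of genes were called, 14.5% as higher and 10.7% as lower.

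In tumours, Prl2c3 was 1.73 RPKM in the lowest, 6.78 at the median and 18.4 in the highest of 6 from 4T07, against 0.0220, 0.0693 and 0.114 RPKM in 6 from 67NR, with no overlap. The difference was 2.82 ± 0.36, in a comparison that called 64.8% of genes, 29.5% as higher and 35.3% as lower. Prl2c3 passed the filter through the 4T07 tumours alone, and with no filter the limma adjusted p was 3.50e-05. Prl2c2 was 0.819, 3.92 and 9.32 RPKM in 4T07 tumours, against 0.0248, 0.0961 and 0.337 RPKM in 67NR tumours, and did not enter the fit. The 4T1 tumours, at 0.161 to 3.09 RPKM, also lay above the 67NR tumours in Prl2c3 without overlap. That gap was narrow, with 7 reads in the lowest 4T1 tumour against 5 in the highest 67NR tumour. In Prl2c2 the 4T1 tumours, at 0.0420 to 1.24 RPKM, overlapped the 67NR tumours. Both genes were too low for the fit of 4T1 against 67NR tumours, which called 59.4% of genes. The lines also differed in cell markers. All 3 fitted epithelial markers were higher in 4T07 tumours, at a summed 189 to 318 RPKM against 0.731 to 4.70 RPKM in 67NR tumours, and neutrophil markers were higher in 3 of 3 (167 to 1000.4 RPKM in 4T07 against 7.21 to 337 RPKM in 67NR). Endothelial markers were lower in 3 of 3 fitted (7.37 to 47.3 RPKM in 4T07 against 35.6 to 95.9 RPKM in 67NR) and macrophage markers in 2 of 2 (45.5 to 91.2 RPKM in 4T07 against 99.8 to 167 RPKM in 67NR). Their part was not tested. In culture, where neutrophil markers were at most 9.31 RPKM in 4T07 and 3.73 RPKM in 67NR, the difference in Prl2c3 was 4.67, and epithelial markers were higher there too (250 to 1156 RPKM in 4T07 against 0.0607 to 4.32 RPKM in 67NR).

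The regulators of proliferin did not fall on one side between these lines. In 4T07 cultures Fosl1 was lower than in 67NR cultures (100 RPKM in 4T07 against 209 RPKM in 67NR, adjusted p = 0.000585) and so was Jun (33.2 RPKM in 4T07 against 123 RPKM in 67NR, adjusted p = 0.000233), while Jund was higher (17.5 RPKM in 4T07 against 7.77 RPKM in 67NR, adjusted p = 0.0139). In all, 1 of the 8 AP-1 and glucocorticoid receptor genes was higher and 3 lower in 4T07 cultures. In tumours 4 of the 8 AP-1 and glucocorticoid receptor genes were higher in 4T07 and 2 lower. Nr3c1, the glucocorticoid receptor, was lower in 4T07 tumours (10.7 RPKM in 4T07 against 20.5 RPKM in 67NR). Igf2r was higher in 4T07 both in culture (38.5 RPKM in 4T07 against 7.42 RPKM in 67NR) and in tumours (20.8 RPKM in 4T07 against 10.9 RPKM in 67NR). Plau, the urokinase gene, was higher in 4T07 cultures (27.7 RPKM in 4T07 against 2.20 RPKM in 67NR). Of 12 listed trophoblast genes, 3 entered each fit, of which 3 were higher in 4T07 tumours and 1 in 4T07 cultures. Plac1, a placental gene, was the one higher in both, in tumours (4.86 RPKM in 4T07 against 0.550 RPKM in 67NR) and cultures (3.40 RPKM in 4T07 against 0.515 RPKM in 67NR).

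The 4T1 tumours were below the 4T07 tumours. Prl2c3 was 0.161, 0.570 and 3.09 RPKM as lowest, median and highest in 4T1, against 1.73, 6.78 and 18.4 RPKM in 4T07, and the ranges overlapped through the 4T1 tumour of mouse 11. The difference was -2.14 ± 0.43 for Prl2c3 and -1.75 ± 0.34 for Prl2c2. The comparison called 43.5% of genes, 24.9% as higher and 18.6% as lower. Both genes passed the filter through the 4T07 tumours and that 1 tumour of 4T1. With no filter the limma adjusted p was 0.00317 for Prl2c3 and 0.00270 for Prl2c2. Fosl1 (18.0 RPKM in 4T1 against 49.9 RPKM in 4T07, adjusted p = 0.00187), Gata2, a trophoblast transcription factor (0.665 RPKM in 4T1 against 2.16 RPKM in 4T07), and Plac1 (0.152 RPKM in 4T1 against 4.86 RPKM in 4T07) were also lower in 4T1 tumours, and Mmp10 was higher (18.5 RPKM in 4T1 against 1.43 RPKM in 4T07). In all, 1 of the 8 AP-1 and glucocorticoid receptor genes was higher and 1 lower, and 5 of the 10 phorbol and serum response genes were higher and 0 lower. Of the 12 trophoblast genes 4 entered the fit, of which 2 were lower and 0 higher. Epithelial markers were higher in 5 of 5 fitted (508 to 1176 RPKM in 4T1 tumours against 189 to 318 RPKM in 4T07 tumours). Fibroblast markers were higher in 5 of 6 and lower in 1 of 6 in 4T1 tumours (233 to 847 RPKM in 4T1 against 170 to 723 RPKM in 4T07), and endothelial markers were higher in 3 of 3 fitted (22.1 to 94.5 RPKM in 4T1 against 7.37 to 47.3 RPKM in 4T07). Their part was not tested.

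In culture the comparison of 4T1 with 4T07 depended on the label. Over all 4 cultures of each line the difference was -2.71 ± 1.03 for Prl2c3 (adjusted p = 0.111) and -2.44 ± 0.90 for Prl2c2 (adjusted p = 0.101), where 17.7% of genes were called. Splits by label were chosen after the data were seen. Among AS cultures alone, 4T1 had 17.5 and 17.8 RPKM of Prl2c3, against 24.4 and 17.0 RPKM in 4T07, a difference of -0.19 (adjusted p = 0.217). For Prl2c2 it was -0.46 (limma adjusted p = 0.00243). That fit, with 2 cultures of each line, called far more genes than the 1837 called over all 4 cultures. Passing the threshold there thus says little about Prl2c2 in particular. Among isolation cultures alone it was -5.22 for Prl2c3 and -4.42 for Prl2c2, with 2 cultures of each line, given without a test since both genes passed the filter through the 4T07 cultures alone.

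The lines with a labelled Myc driver overlapped as tumours. Mvt1 tumours had 0.407, 2.25 and 93.6 RPKM of Prl2c3, against 1.80, 4.44 and 8.62 RPKM in 6DT1 tumours. The difference was -0.16 ± 0.87 for Prl2c3 and 0.11 ± 0.74 for Prl2c2, given without a test for the shared 6DT1 tumours. In culture Mvt1 was lower, with Prl2c3 at 0.166, 0.104 and 0.0231 RPKM, against 2.93, 2.08 and 1.63 RPKM in 6DT1 cultures. The groups did not overlap, and the gene passed the filter through the 6DT1 cultures alone. The difference was -1.53 ± 0.14, in a comparison that called 51.5% of genes, 22.3% as higher and 29.2% as lower. With no filter the limma adjusted p was 0.000570. Prl2c2 was 0.0858, 0 and 0.0239 RPKM in Mvt1 cultures, against 1.27, 0.812 and 0.708 RPKM in 6DT1 cultures, and did not enter the fit.

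In those cultures the AP-1 genes were not all on the side of proliferin. Fos was far higher in Mvt1 (170 RPKM in Mvt1 against 0.277 RPKM in 6DT1), as were Fosb (72.9 RPKM in Mvt1 against 0.862 RPKM in 6DT1) and Junb (183 RPKM in Mvt1 against 35.4 RPKM in 6DT1), while Fosl1 was lower (7.81 RPKM in Mvt1 against 38.9 RPKM in 6DT1, adjusted p = 8.64e-05). Timp1 was lower in Mvt1 too (18.2 RPKM in Mvt1 against 71.4 RPKM in 6DT1), and so were the metalloproteinase genes Mmp3 (6.66 RPKM in Mvt1 against 59.1 RPKM in 6DT1) and Mmp10 (0.201 RPKM in Mvt1 against 3.80 RPKM in 6DT1). In all, 5 of the 8 AP-1 and glucocorticoid receptor genes were higher and 1 lower, and 3 of the 10 phorbol and serum response genes were higher and 6 lower.

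Genes whose group means followed the summed proliferin level most closely were found over the 54 groups of tumours, metastases and cultures. Among 13434 genes the median Pearson r was -0.02 and the 95th percentile 0.47. The 8 highest were Prl2c5 (r = 0.90), Serpinb2 (0.81), the cytokine gene Il24 (0.80), Tnip3 (0.78), an inhibitor of NF-κB signalling, the connexin gene Gjb5 (0.75), the muscle-type enolase gene Eno3 (0.74), Procr, the endothelial protein C receptor (0.72), and the serpin gene Serpinb9g (0.72). By rank, 3 of these 8 remained among the highest 8, namely Prl2c5, Il24 and Serpinb9g. Prl2c5 shares stretches of sequence with both proliferin genes, and the part of shared reads in its likeness was not tested.

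The like genes were not high in every group with proliferin RNA. Il24 averaged 94.2 RPKM in 6DT1 orthotopic metastases, 28.0 RPKM in TSAE1 tumours and 0.373 RPKM in 4T07 tumours, a group with 12.3 RPKM of proliferin RNA. Serpinb2 averaged 28.5 RPKM in 6DT1 orthotopic metastases, 7.41 RPKM in TSAE1 tumours and 0.257 RPKM in 4T07 cultures, which held 48.5 RPKM of proliferin RNA. Of the 8 AP-1 and glucocorticoid receptor genes, Fosl1 (r = 0.56) lay above the 95th percentile, and the other 7 lay between -0.42 (Jund) and 0.11 (Fosb), with Fos and Jun both at -0.26. Of the 10 phorbol and serum response genes, Plau (0.70), Timp1 (0.68), Plaur (0.64), Mmp3 (0.58) and Mmp10 (0.50) lay above it, and the other 5 between -0.39 (Egr1) and 0.41 (Odc1). Igf2r stood at 0.23. Of the 7 like genes with a promoter sequence, Procr and Serpinb2 held the AP-1 motif shown above.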

How the data were processed

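RNA of snap-frozen tissue or cultured cells was extracted with TriPure, and per the labels' protocols TruSeq v4 chemistry and a HiSeq2500 were used for sequencing. The submitters' processing notes name TopHat, DESeq2 and the mm9 genome without versions, and no count-based test was run here. The authors deposited RPKM values per gene in a single table for the whole series, with 0 columns left without a sample. Counted reads per library were recovered from the steps between low RPKM values (8539 genes, 100% of values whole within 0.01 reads).

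The members and the gene lists were chosen with earlier results of these data known. Libraries of 1 tissue and animal were averaged, and 0 libraries were identical to another. RPKM were taken to log2(RPKM + 1), with a pseudocount of 1, and fitted with limma 3.58.1 (trend and robust moderation) in R 4.3.3 with the data.table package, version 1.17.8, two-sided, with Benjamini-Hochberg adjustment over the genes fitted. A comparison kept genes with 1 RPKM or more in a number of profiles no lower than the size of its smaller group, which left 10178 to 11643 genes. Of 30 comparisons, 15 had a proliferin gene in the fit. Where a gene passed that filter through 1 group alone, its adjusted p is given from the fit with no filter. For Mvt1 tumours against cultures, the p of the filtered fit is given beside the range over the alternatives. The fits were tested on simulated data. Tables and figures used Python 3.11.15, numpy 2.4.6, pandas 2.3.3 and matplotlib 3.10.9. Coordinates and sequences came from GRCm38 with GENCODE vM21 and RefSeq promoters, not from mm9, and no mm9 coordinate was used.

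Lung metastases and primary tumours were paired by the animal that both labels name, and the animal was a block in those fits. Within pairs, deviations from the group means correlated at over 0.1 in 4 of 6 animals with 6DT1, 4 of 6 with 4T1 and 2 of 6 with Mvt1. Genes named in the text are the members in every comparison, the 8 genes with the highest Pearson r to the summed level over group means (genes at 1 RPKM or more in at least 3 groups, without predicted genes), and listed genes, by counts, with values where they were called together with a proliferin gene. Further values of Myc, Epcam, Serpinb2 and Sftpc in single samples were chosen after the data were seen. Alternatives were a pseudocount of 0.1, no filter, median-ratio scaling, no replicate block and replicates left out in turn. Medians in place of means, ranks in place of Pearson's r, and cultures of 1 title label were also used. Where tumours were set against cultures, only cultures were left out.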

Additional observations from a re-analysis of the deposited data

Results flagged for a closer look

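Single animals lay far from the rest of their group in 8 of 40 sets of a group and a gene. The gap to the nearest animal exceeded Dixon's critical value in each. The 5% chance rate of that value assumes normally spread values, whereas these were untransformed RPKM, with long upper tails in some groups. The count of 8 can therefore not be held against that rate. Both genes marked the same animals, and as near copies they do not give independent sets.

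The Mvt1 primary tumour of mouse 2 had 93.6 RPKM of Prl2c3 and 38.1 RPKM of Prl2c2, where the other 5 tumours had at most 3.05 and 1.34 RPKM. The 4T1 primary tumour of mouse 11 had 3.09 RPKM of Prl2c3 and 1.24 RPKM of Prl2c2, where the other 5 tumours had at most 0.861 and 0.458 RPKM. The EMT6 tumour PT3 had 66.7 RPKM of Prl2c3 and 133 RPKM of Prl2c2, where the other 3 tumours had at most 16.6 and 41.2 RPKM. The Mvt1 tail vein metastasis of mouse 6 had 51.8 RPKM of Prl2c3 and 23.0 RPKM of Prl2c2, where the other 5 had at most 23.5 and 10.8 RPKM. All 8 values were high ones.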

How the results depend on the processing

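Of 150 alternative values of the tested differences, 142 kept their direction and their side of the threshold. These include comparisons in which a gene passed the filter through 1 group alone, and the genes are near copies. The count is therefore not one of independent checks. Median-ratio scaling turned Prl2c3 in Mvt1 tail vein against orthotopic metastases to -0.012, from a value near 0. Of 36 alternative values of differences given without a test, 31 stayed within the spread between animals. A pseudocount of 0.1 turned Prl2c2 in Mvt1 against 6DT1 tumours to -0.24, and with 1 tail vein animal left out the 6DT1 tail vein difference was -3.03 to -0.26 for Prl2c3 and -2.80 to -0.082 for Prl2c2. By its construction a pseudocount of 0.1 gave larger differences for low genes, such as 2.33 for Prl2c3 and 2.50 for Prl2c2 in 4T1 metastases and 5.29 for Prl2c3 in 4T07 against 67NR tumours. Leaving out each replicate gave 1.63 to 3.30 for Prl2c3 and 1.27 to 2.73 for Prl2c2 in Mvt1 metastases against tumours, past the threshold without mouse 2 only. It gave -3.09 to -1.82 for Prl2c2 in 4T1 against 4T07 cultures (adjusted p = 0.0495 to 0.215). In 4T1 metastases it gave 1.26 to 1.65 for Prl2c3 (adjusted p = 0.0122 to 0.0496) and 1.16 to 1.48 for Prl2c2, except without mouse 11, where neither gene could be fitted. With cultures of 1 label, chosen after the data were seen, Prl2c3 in 4T07 tumours against AS cultures was -1.51. In 4T1 against 4T07, Prl2c2 was -0.46 (AS) and -4.42 (isolation), and Prl2c3 was -5.22 (isolation). By ranks, 3 of the 8 most alike genes stayed.

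Without the replicate block, Prl2c3 and Prl2c2 in metastases against tumours were 1.43 and 1.29 in 4T1 (adjusted p = 0.0388 and 0.0182), 2.23 and 1.78 in Mvt1 (adjusted p = 0.118 and 0.154) and 5.24 and 4.87 in 6DT1, so the pairing changed no call. Genes called moved in 4T1 metastases from 1363 to 491 at the lowest with a replicate left out, and in Mvt1 from 3172 to 1514. They moved in 6DT1 tail vein metastases from 1187 to 500 without a filter and to 5 and 227 with 1 animal, and in Mvt1 ones from 470 to 182 under median-ratio scaling. Cultures of 1 label gave 8108 (AS) against 4101 for 4T07 tumours, 7584 (AS) and 6284 (isolation) against 2651 for 4T07 and 67NR cultures, and 7800 and 6139 against 1837 for 4T1 and 4T07 cultures. Mvt1 tumours and cultures gave 2343 to 2737 with a culture left out against 3792, and 4T1 and 4T07 cultures 1216 at the lowest. The causes were not tested. Low levels rest on few reads, such as 2 to 28 per library in 67NR cultures.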

Other observations

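Other members of the prolactin family were low in most groups. Of 22 further family genes, 9 reached 1 RPKM in any library. Prl8a1 did so in 328 libraries, and the other 8 in 1 to 7 libraries each.

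Placental lactogen genes were abundant in 2 of 4 R3T tumours, the line on a 129S1J host. Tumour PT1-3 had 114 RPKM of Prl3d1, 469 RPKM of Prl3d2 and 444 RPKM of Prl3d3, and was the lowest R3T tumour in proliferin, at 0.433 RPKM of Prl2c2 and 0.274 RPKM of Prl2c3. Tumour PT1-7, the highest in proliferin at 14.1 and 9.88 RPKM, had 12.3 RPKM of Prl3d1, 135 RPKM of Prl3d2 and 107 RPKM of Prl3d3. Tumour PT1-6, with 1.12 RPKM of Prl2c2 and 1.53 RPKM of Prl2c3, had 1.01 RPKM of Prl3d1, 8.33 RPKM of Prl3d2 and 8.10 RPKM of Prl3d3. Tumour PT1-1, with 6.45 RPKM of Prl2c2 and 2.94 RPKM of Prl2c3, had each Prl3d gene under 1 RPKM. These are near-identical genes too, so their split is uncertain.

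The PyMT tumour of MOLF animal 10047, which held 6.70 RPKM of Prl2c3, also had 13.8 RPKM of Prl2a1, 6.29 RPKM of Prl4a1 and 2.80 RPKM of Prl7d1, the gene of proliferin-related protein. In it the trophoblast genes Tpbpa and Ctsj stood at 2.43 and 4.67 RPKM, the highest values of the series. Prl2c5 amounted to 27.7% of the summed proliferin level there, against a median of 1.17% over the profiles at 10 RPKM or more. The other MOLF tumour over 1 RPKM of proliferin, at a summed 6.81 RPKM, had 5.27 RPKM of Prl2a1. The 4T1 cultures labelled AS had 4.50 and 3.93 RPKM of Prl2a1 and 6.06 and 4.72 RPKM of Prl3d2.

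Plac1, a placental gene, was highest in HRM1 tumours, with a group mean of 36.7 RPKM. Prlr, the prolactin receptor, ran against the proliferin level over the 54 group means at r = -0.44, a description. Tfap2c and Adgre1, listed as trophoblast and macrophage genes, were not analysed here.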
